A study of Homo sapiens with 12 samples.

Results

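Nuclear transfer RNA genes were examined for peaks of 5 chromatin proteins in HEK293T, a line derived from human embryonic kidney. A member was any gene of biotype tRNA in the RefSeq gene table of GRCh38.p14 on chromosomes 1 to 22 and X, with 1 kb on either side. Of 58419 genes placed on these chromosomes, 429 were tRNA genes, of 22 isotypes (an isotype is the set of genes whose tRNA carries one amino acid, with initiator methionine and selenocysteine kept apart). The genes were 70 to 108 bp long, with a median of 73 bp. A further 14 tRNA entries of the table lie on scaffolds and patches and were not used.

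Each protein was mapped by ChIP-seq in 2 libraries of wild type HEK293T cells: INTS13, INTS11, HDGF, ZEB1 and ZNF609. The study set out to learn whether INTS13 and transcription factors that interact with it lie at the same places in the genome. The data were 10 lists of peaks, 1 per library, of 26409 to 416964 peaks on these chromosomes, and the 2 libraries of input chromatin were not used. All cells were of 1 line, no treatment is given, and the labels do not tell whether the 2 libraries of a protein are separate cultures or only separate preparations. Differences between replicates may therefore be technical.

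Transfer RNA genes are transcribed by RNA polymerase III from a promoter that lies inside the gene. TFIIIC recognises its A box and B box and brings in TFIIIB, which recruits the polymerase. Integrator is known as a complex of RNA polymerase II genes: INTS11 is its RNA endonuclease, which cuts nascent small nuclear RNAs and other transcripts, and INTS13 belongs to a module of the complex that contacts sequence-specific factors. HDGF is a chromatin-associated protein with a PWWP domain, ZEB1 is a zinc-finger and homeodomain repressor, and ZNF609 is a zinc-finger protein that also binds cohesin-loading and Integrator subunits.

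Sequences of 14 tRNA genes could be read, because these genes lie whole within the 300-base RefSeq windows around the starts of other genes (GRCh38.p14). They are shown in the direction in which the named anticodon stands in the anticodon loop. The letters TTC, any base and A, which are part of the B box pattern, had also to stand near the 3' end. A direction could be set for all 14 genes. Capitals mark the anticodon and any match to an A box (TNGCNNANNNGG) or a B box (GGTTCNANNCC), where N is any base. The first pair are the genes among the 15 most occupied ones whose sequence could be read. The other 3, chosen after their values were seen, are an identical pair with different peaks and a gene without a peak in any list.
TRF-GAA1-5: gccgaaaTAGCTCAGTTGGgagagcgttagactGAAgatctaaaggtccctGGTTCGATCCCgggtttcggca
TRN-GTT4-1: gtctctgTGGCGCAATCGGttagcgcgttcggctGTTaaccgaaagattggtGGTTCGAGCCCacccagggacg
TRH-GTG1-3: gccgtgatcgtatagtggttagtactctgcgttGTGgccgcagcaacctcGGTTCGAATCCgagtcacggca
TRH-GTG1-9: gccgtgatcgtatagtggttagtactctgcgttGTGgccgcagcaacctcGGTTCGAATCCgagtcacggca
TRA-AGC2-2: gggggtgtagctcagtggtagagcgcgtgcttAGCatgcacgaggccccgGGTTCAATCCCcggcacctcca

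The B box letters were found in 12 of the 14 tRNA genes and, on either strand, in 0.843% of the 35116 start windows of all genes. The A box letters were found in 5 of the 14 tRNA genes and in 12.0% of all start windows. The genes are shorter than the 300-base windows and were searched in the shown direction only, so these shares are not like for like. A match describes the letters only. TRF-GAA1-5 is a phenylalanine tRNA gene on the minus strand at chr13:94549650-94549722, and it had a peak in all 10 lists. TRN-GTT4-1, an asparagine tRNA gene on the plus strand at chr1:16889677-16889750, had a peak in 9 lists. The 72 bases of TRH-GTG1-3 (plus strand, chr1:148281365-148281436) and TRH-GTG1-9 (plus strand, chr15:45201151-45201222), which encode a histidine tRNA, are the same. TRH-GTG1-3 had a peak in both INTS13 lists and in replicate 1 of INTS11, whereas TRH-GTG1-9 had a peak only in replicate 1 of HDGF. TRA-AGC2-2, an alanine tRNA gene on the minus strand at chr6:28863685-28863756, had no peak in any of the 10 lists.

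INTS13 had peaks at more tRNA genes than the other 4 proteins, in both of its lists. A peak overlapped the window of 254 of 429 tRNA genes (59.2%) in INTS13 replicate 1 and of 200 (46.6%) in replicate 2. INTS11 peaks were found at 152 tRNA genes (35.4%) in replicate 1 and at 53 (12.4%) in replicate 2. HDGF peaks were found at 80 (18.6%) and 63 (14.7%) tRNA genes. ZEB1 peaks were found at 24 (5.59%) and 26 (6.06%) tRNA genes, and ZNF609 peaks at 19 (4.43%) and 12 (2.80%). By the mean of a protein's 2 lists, the order of these shares was that of the numbers of peaks, and the INTS11 lists differed most from each other. At least 1 list had a peak at 275 tRNA genes, and no list had one at 154.

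These shares were close to those of gene ends in general. Windows of 1 kb either side of both ends of all genes had a peak in 50.4% and 43.9% of cases in the INTS13 lists, 26.3% and 12.2% in the INTS11 lists, 18.1% and 15.3% in the HDGF lists, 6.45% and 4.61% in the ZEB1 lists and 4.26% and 2.25% in the ZNF609 lists, for replicates 1 and 2 in that order. The share at tRNA genes was higher than at gene ends in 8 of 10 lists, by 2.19 ± 3.70 percentage points on average (SD over 10 lists). That difference did not pass an exact two-sided sign-flip test over the 10 lists (p = 0.0684, Benjamini-Hochberg adjusted over 5 such comparisons p = 0.114). Against windows 10 to 50 kb from the same tRNA genes the mean difference was 0.674 ± 4.52 points, with 4 of 10 lists higher at tRNA genes (exact sign-flip p = 0.660). The largest differences from gene ends were in replicate 1 of INTS11 (9.08 points) and replicate 1 of INTS13 (8.80 points). In their replicates 2 the differences were 0.155 and 2.70 points.

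**Figure D1:**
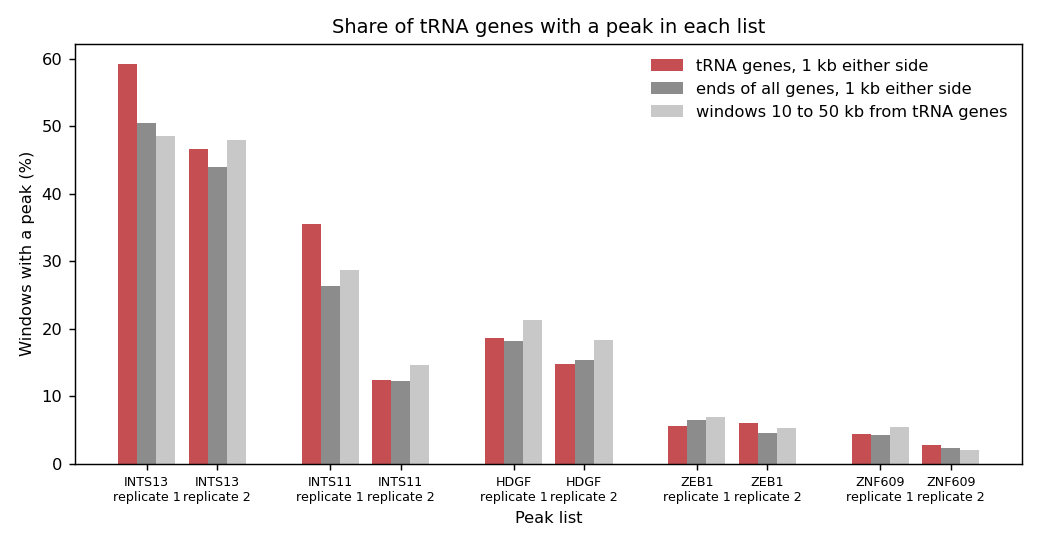
Share of windows with a peak (%, vertical axis) in each of the 10 peak lists, for 429 tRNA genes (red), the ends of all genes (dark grey) and windows 10 to 50 kb from the tRNA genes (light grey). In replicate 1 of INTS13 and of INTS11 the tRNA bar is the highest of the 3, at 59.2% and 35.4%, while in most other lists the 3 bars lie close together.

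The comparison with gene ends depended on which windows stood for the background and on a stretch of chromosome 6. Without the tRNA genes and gene ends inside chr6:28507845-31254287 the difference was 4.23 points. That stretch was picked because none of the 10 lists had a peak there, and it holds 40 tRNA genes, so the tRNA share had to be higher without it and no test is given. Set against ends of protein-coding genes alone it was -3.52 points (same exact test, adjusted p = 0.0423), so tRNA genes had a peak less often than those. Against snRNA, snoRNA and miRNA genes it was -0.322 points (same exact test, adjusted p = 0.764).

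Regions found in both replicates were taken as merged peaks that held a peak of each list of a protein. INTS13 had such a region at 192 tRNA genes (44.8%, against 37.9% of gene ends). INTS11 had one at 50 tRNA genes (11.7%, against 9.57%), HDGF at 38 (8.86%, against 9.19%), ZEB1 at 7 (1.63%, against 2.27%) and ZNF609 at 5 (1.17%, against 1.27%). With 2 lists a protein, an exact permutation test of 1 protein against another could not go below p = 0.333. Across all 10 lists, the log2 ratio of the tRNA share to the gene-end share differed no more between proteins than between the replicates of a protein (root mean square 0.282 between and 0.354 within, exact one-sided permutation test over 945 divisions into pairs, p = 0.856).

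Other small RNA genes give a second scale for these shares. The INTS13 share of 44.8% at tRNA genes stood beside 43.6% at miRNA genes, 31.9% at snoRNA genes and 30.9% at snRNA genes. Integrator is known to cut the RNA 3' ends of the RNA polymerase II genes of the snRNA class. That class also holds RNA polymerase III genes, such as those of U6 and 7SK, which were not kept apart here. For INTS11 the share was 11.7% at tRNA genes, 10.8% at miRNA, 11.3% at snoRNA and 7.38% at snRNA genes. HDGF ran the other way for miRNA and snoRNA genes, with 8.86% of tRNA genes against 15.6% of miRNA and 19.2% of snoRNA genes. Its share at snRNA genes, 4.03%, was below that at tRNA genes, as for INTS13 and INTS11. In the single HDGF lists the tRNA shares of 18.6% and 14.7% stood beside 28.7% and 27.6% at snoRNA genes. These differences between gene classes were not tested.

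The proteins were found at overlapping sets of tRNA genes. INTS13 had a both-replicate region at 50 of the 50 tRNA genes with INTS11, 36 of the 38 with HDGF, 7 of the 7 with ZEB1 and 5 of the 5 with ZNF609. Gene ends showed nearly the same nesting, since INTS13 was present at 95.7% of gene ends with INTS11, 89.9% with HDGF, 98.1% with ZEB1 and 96.5% with ZNF609. The 2 tRNA genes with HDGF and without INTS13 were TRL-CAA2-1 (leucine) and TRQ-TTG3-3 (glutamine). INTS13 alone was found at 122 tRNA genes, INTS13 with INTS11 at 28, INTS13 with HDGF at 20 and these 3 proteins without the other 2 at 12. No protein had a both-replicate region at 235 tRNA genes.

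Much of the INTS11, ZEB1 and ZNF609 signal at tRNA genes, as at gene ends, lay in bins dense in peaks. A 1-Mb bin was called dense where the median over the 10 lists of its peak number, relative to the list's average bin, was above 2, which held for 382 of 3038 bins. Dense bins contained 100 of the 429 tRNA genes. Among these, INTS13 had a both-replicate region at 60 of the 100 (against 83.4% of gene ends in dense bins), INTS11 at 37 (against 42.8%), HDGF at 18 (against 31.5%), ZEB1 at 7 (against 11.9%) and ZNF609 at 5 (against 6.70%). In these bins tRNA genes were thus below gene ends for all 5 proteins. Of the 100 tRNA genes, 35 had no peak in any list. Most of these came from single places: 24 of the 32 genes at chr1:161399700-161612029 and all 5 at chr12:124921755-124940037.

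Among the 329 tRNA genes outside dense bins the order was reversed for 3 proteins. INTS13 had a both-replicate region at 132 (40.1%, against 27.7% of gene ends), INTS11 at 13 (3.95%, against 2.13%) and HDGF at 20 (6.08%, against 4.19%). ZEB1 and ZNF609 had none there, against 0.103% and 0.0471% of gene ends. Of the gene ends with an INTS11 region, 2033 of 11181 lay outside dense bins, against 13 of 50 tRNA genes. For ZEB1 98 of 2648 such gene ends lay outside them, and for ZNF609 45 of 1479. Over single lists outside dense bins the tRNA share was higher than the gene-end share by 4.88 points on average. Dense bins were picked by the peak numbers of these same lists, so no test of that difference is given. What makes a bin dense was not tested, and the copy number of a segment in this line cannot be told apart from occupancy in peak lists.

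The tRNA genes were next grouped by genomic position. With genes up to 100 kb apart joined, the 429 genes fell into 15 clusters of 5 or more genes (274 genes), 30 smaller clusters and 79 lone genes. INTS13 had a both-replicate region at 105 of the 274 genes in large clusters (38.3%) and at 87 of the 155 other genes (56.1%). INTS11 had one at 30 (10.9%) and 20 (12.9%) of these genes, and HDGF at 22 (8.03%) and 16 (10.3%). Neighbouring windows can share a peak: the 254 tRNA genes with a peak in INTS13 replicate 1 had 203 different strongest peaks, and the 192 with a both-replicate region lay on 177 regions.

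The largest cluster, 43 genes at chr6:28474552-28989083 of 12 isotypes with 15 alanine and 6 phenylalanine genes, was nearly free of peaks. In INTS13 2 of its 43 genes had a peak in each replicate (4.65%), against 65.3% and 51.3% of the other tRNA genes in replicates 1 and 2. In INTS11 1 and 0 of the 43 had a peak, against 39.1% and 13.7% of the others. In HDGF 0 and 1 of the 43 had a peak, against 20.7% and 16.1%, and in ZEB1 and ZNF609 none did. The cluster was lower in 10 of 10 lists, by 21.3 ± 20.0 points on average (exact two-sided sign-flip test, p = 0.00195, the smallest it can give, adjusted p = 0.00977). Averaged to 5 proteins, p was 0.0625, the smallest for 5 values. All 10 lists share a gap in peaks over 40 of these 43 genes. The test therefore measures the agreement of the lists at 1 locus and tells nothing of clusters in general.

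The gap was wider than the cluster. Between chr6:28507845 and 31254287, over 2.75 Mb, no list had a peak. This stretch holds 236 genes, 68 of them protein-coding, and 40 of the 43 tRNA genes of the cluster. On these chromosomes 30 stretches without a peak were longer, but their gene content is not given here, so they are no like comparison. Between 0.437% and 1.52% of the running peak numbers of a list were missing from its file, so some called peaks had been taken out. Whether peaks had been removed from this stretch cannot be told from the lists, and the low share of the cluster cannot be told apart from such a removal. Each list also held some peaks outside these chromosomes, which were not used. Whether reads from this stretch had been placed on other contigs was not tested.

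Stretches of 20 kb or more without a peak of any list were common, with 16725 on these chromosomes, and held 123 tRNA genes (28.7%), against 27.3% of gene ends. Besides the long one on chromosome 6, those with most tRNA genes were the following. At chr1:161422550-161472400 (49.9 kb) 24 tRNA genes lay without a peak of any list, at chr6:26666694-26835801 (169 kb) 18, at chr6:57810230-57873471 (63.2 kb) 5 and at chr12:124905901-124941800 (35.9 kb) 5. With the long stretch and a further pair on chromosomes 15 and X with 3 genes each, the stretches of at least 3 tRNA genes held 98 of the 123. Mapping of reads to near-identical tRNA copies was not tested.

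**Figure D2:**
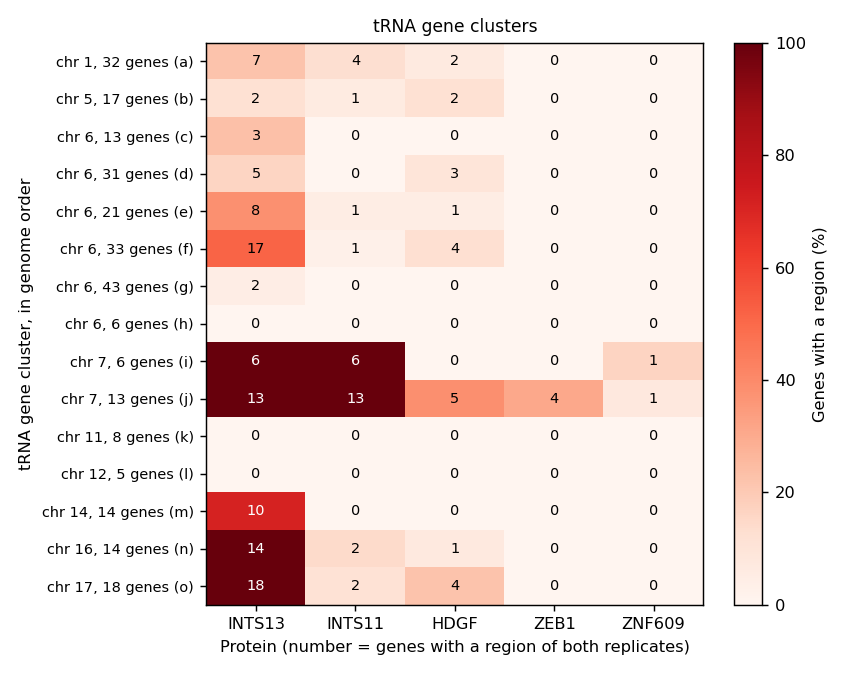
Genes with a both-replicate region in the 15 tRNA gene clusters of 5 or more genes, in genome order (rows), for each protein (columns); numbers count genes and colour gives the percent of the cluster's genes. INTS13 was at every gene of the clusters on chromosomes 7, 16 and 17, and INTS11 at every gene of the chromosome 7 clusters only.

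The clusters differed from one another along the genome. INTS13 had a both-replicate region at all 18 genes at chr17:8119155-8227064, which hold 11 isotypes, and 17 of these lie by a protein-coding or lncRNA gene end. It had one at all 14 genes at chr16:3150674-3192060, mostly proline and lysine genes. Windows 10 to 50 kb away had a region in 84.3% and 78.9% of cases at these clusters, so their neighbourhood was also well covered. With only peaks of -log10 q from 5 up, the counts were 4 of 18 and 0 of 14. Over all 429 tRNA genes, 49 (11.4%) had an INTS13 region at that limit.

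At chr14:20609336-20684087 the share inside the cluster was far above that around it. INTS13 had a region at 10 of its 14 tyrosine, proline, threonine and leucine genes (71.4%), against 16.6% of windows 10 to 50 kb away, but at 0 of 14 with only peaks of -log10 q from 5 up. At chr6:27478812-27795932 it had a region at 17 of 33 genes (51.5%; 0 of 33 at that q limit), against 29.7% of windows around them, and all 33 genes had a peak in at least 1 list. The opposite held at chr1:161399700-161612029, with a region at 7 of 32 genes (21.9%), against 64.0% around, and at chr5:181097070-181222467, with 2 of 17 (11.8%), against 52.9%. These contrasts are counts in single clusters with no test.

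The 8 genes at chr11:59550629-59566452 showed how far the replicates could part. All 8 had a peak in INTS13 replicate 1 and none had one in replicate 2, so no both-replicate region was counted. In HDGF 3 of the 8 had a peak in replicate 1 and none in replicate 2. The remaining clusters of chromosome 6 had INTS13 regions at 3 of 13 genes (chr6:26286526-26331515), 5 of 31 (chr6:26521208-26828299), 8 of 21 (chr6:27020346-27335062) and 0 of 6 (chr6:57800211-57856473). The 5 genes at chr12:124921755-124940037 had no peak in any list, against 50% of windows around them with an INTS13 region.

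The clusters of cysteine tRNA genes on the long arm of chromosome 7 carried both Integrator subunits. INTS13 and INTS11 each had a both-replicate region at all 6 genes at chr7:149310190-149415209 and at all 13 genes at chr7:149546540-149707740, of which 12 are cysteine genes and 1 is a serine gene. HDGF was found at 5 of the 13, ZEB1 at 4 and ZNF609 at 1 of each cluster. All 19 genes lie in dense bins, and windows 10 to 50 kb away had an INTS13 region in 95.7% and 95.4% of cases and an INTS11 region in 91.5% and 88.0%. A both-replicate region can reach a window that only 1 of its lists touches: INTS11 replicate 1 had a peak at 5 of the first 6 genes. With the summit required in the window, INTS13 counts were 2 of 6 and 1 of 13 and INTS11 counts 4 of 6 and 5 of 13. With only peaks of -log10 q from 5 up, INTS13 counts were 5 of 6 and 12 of 13, and INTS11 counts 1 of 6 and 1 of 13.

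Isotypes differed along with these positions. INTS13 had a both-replicate region at 6 of 7 tryptophan, 16 of 20 proline, 20 of 29 cysteine, 17 of 26 arginine, 13 of 20 threonine and 8 of 13 tyrosine genes. It had one at 14 of 27 lysine, 15 of 30 glycine, 13 of 26 serine, 11 of 23 isoleucine, 9 of 19 glutamine, 4 of 9 histidine, 6 of 15 glutamate and 5 of 13 aspartate genes. The isotypes with the fewest were alanine with 2 of 37, phenylalanine and methionine with 2 of 11 each, asparagine with 4 of 21, valine with 8 of 30 and leucine with 11 of 32. Of the 37 alanine genes, 32 had no peak in any list, and 30 lie in the peak-free stretches named above, as do 8 of 11 methionine and 7 of 11 phenylalanine genes. None of the proline, cysteine, tryptophan and tyrosine genes lies in one. With only peaks of -log10 q from 5 up, INTS13 regions were left at 16 cysteine, 4 arginine, 2 proline and 1 threonine genes, and with the summit in the window at 3 cysteine, 11 arginine, 9 proline and 8 threonine genes.

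**Figure D3:**
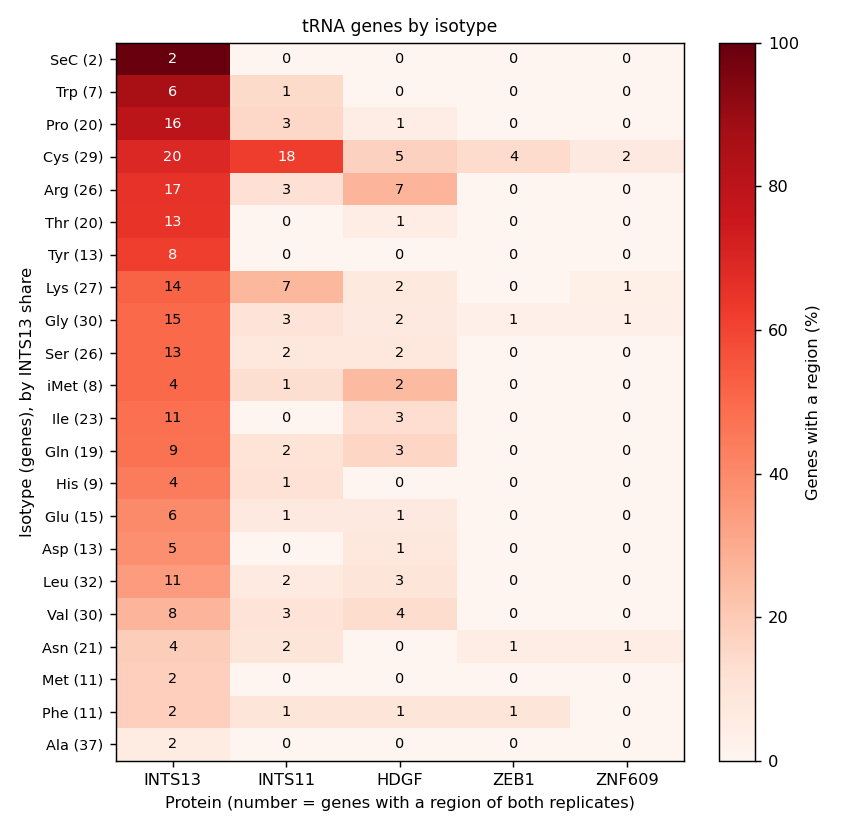
Genes with a both-replicate region for each isotype (rows, with the number of genes) and protein (columns), ordered by the INTS13 share; numbers count genes and colour gives the percent of the isotype's genes. Cysteine stands out for INTS11 with 18 of 29 genes, and alanine has 2 of 37 genes for INTS13 and none for the other proteins.

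INTS11 was at 18 of 29 cysteine genes and 7 of 27 lysine genes, and at no more than 3 genes of any other isotype. The cysteine count was the chromosome 7 count: 18 of the 18 cysteine genes there had an INTS11 region, against 0 of the 11 cysteine genes on other chromosomes. For INTS13 the counts were 18 of 18 on chromosome 7 and 2 of 11 elsewhere. HDGF had its highest counts at arginine genes, 7 of 26, and at cysteine genes, 5 of 29. Genes of 1 cluster share a neighbourhood, so isotypes were not tested as independent groups.

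Special tRNA genes were followed singly. Selenocysteine tRNA reads a stop codon in selenoprotein mRNAs. TRU-TCA1-1 (chr19:45478601-45478687) had INTS13 peaks at percentiles 91.2 and 68.9 of the 2 lists, ranked by the peak's p-value, and TRU-TCA2-1 (chr22:44150657-44150740) at percentiles 41.6 and 10.6. Of the 8 initiator methionine genes, which start translation, 4 had an INTS13 region, 2 an HDGF region and 1 an INTS11 region. TRX-CAT1-1 (chr1:153671250-153671321) had all 3 of these, and TRX-CAT1-8 (chr17:82494721-82494792) had INTS13 and HDGF. TRX-CAT1-4 (chr6:26330301-26330372) had no peak in any list. No gene of the set is named as a suppressor.

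Identical copies of a tRNA gene often differed in their INTS13 regions. By name, 222 genes share their sequence with another, in 57 families, 199 are single and 8 have no family number. All copies had an INTS13 both-replicate region in 8 families, none had one in 17, and some but not all had one in 32; how often unrelated genes would differ was not tested. All 5 TRY-GTA5 genes (tyrosine) had one, as did 4 of 5 TRV-AAC1 genes (valine) and 6 of 8 TRP-AGG2 genes (proline), whereas 0 of 5 TRG-GCC1 (glycine), 1 of 8 TRN-GTT2 (asparagine) and 3 of 11 TRD-GTC2 genes (aspartate) did. Genes with copies had a peak less often than single genes in 9 of 10 lists, by 4.54 ± 4.32 points on average (exact sign-flip test, p = 0.0156, adjusted p = 0.0391). In the INTS13 lists the shares were 55.0% and 43.2% of genes with copies, against 66.3% and 52.3% of single genes. Only HDGF replicate 2 went the other way, with 16.7% of genes with copies against 13.1% of single genes.

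That difference did not hold outside dense bins. There genes with copies had a peak more often than single genes, by 0.648 points on average (exact sign-flip test, adjusted p = 0.375). Dense bins were picked by the peak numbers of these same lists. The loss of 1 list ended the call in 8 of 10 cases (exact sign-flip test, adjusted p 0.0586 to 0.0781). Reads from identical copies cannot be placed by the gene alone, and how the authors treated such reads is not given in the sources used here.

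Position next to an RNA polymerase II gene went with a higher share of tRNA genes with a peak in both INTS13 and both HDGF lists, but in only 5 of the 10 lists. Windows of 122 tRNA genes touched the end window of a protein-coding or lncRNA gene. In the INTS13 lists 73.8% and 57.4% of these had a peak, against 53.4% and 42.3% of the other 307. In the INTS11 lists 47.5% and 8.20% of the near genes had a peak, against 30.6% and 14.0%, so its replicates pointed in opposite directions. In the HDGF lists the shares were 23.8% and 17.2% of the near genes, against 16.6% and 13.7%. Over 10 lists the difference was 5.03 ± 9.33 points, positive in 5 (exact sign-flip test, p = 0.146, adjusted p = 0.183).

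The position of peaks around the gene itself differed between replicates and proteins. The middle of 156 of 429 tRNA genes (36.4%) was covered by a peak in INTS13 replicate 1, against 26.0% of gene ends, and points 2 kb away were covered in 23.2% of cases, against 20.1% for gene ends. In replicate 2 the middle of 73 genes (17.0%) was covered, against 19.6% of gene ends, and 21.3% of points 2 kb away. At 250 bp from the middle, already outside the gene, the shares were 36.7% and 19.1%. So coverage was higher in and next to the gene than 2 kb away in one INTS13 library, and lower in the other. INTS11 covered the middle of 48 (11.2%) and 16 (3.73%) tRNA genes, against 10.2% and 4.0% of gene ends.

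HDGF coverage dipped at the tRNA gene in both libraries. Peaks covered the middle of 5 tRNA genes (1.17%) in replicate 1 and of 6 (1.40%) in replicate 2, against 5.08% and 4.17% of gene ends. At 2 kb from the middle the shares were 6.88% and 4.66%, against 6.08% and 4.69% for gene ends. A both-replicate HDGF region overlapped the gene itself in 2 of 429 cases (0.466%), although 38 genes had one within 1 kb. Part of such a fall comes with the smaller target. In the HDGF lists 18.1% and 15.3% of gene ends had a peak within 1 kb, against 5.08% and 4.17% covered at the end itself. The coverage at single distances is a description with no test.

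**Figure D4:**
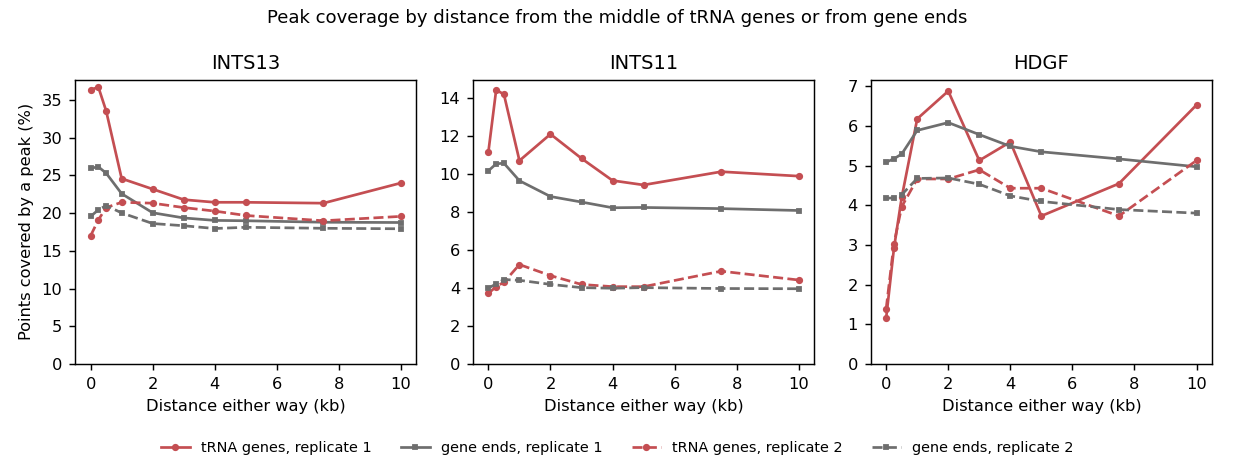
Percent of points covered by a peak (vertical axis) at distances in kb from the middle of tRNA genes (red) or from gene ends (grey), for INTS13, INTS11 and HDGF; solid lines are replicate 1 and dashed lines replicate 2. HDGF coverage at the middle of tRNA genes is 1.17% and 1.40%, and the 2 INTS13 lines part at the middle, at 36.4% and 17.0%.

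Peak strength was compared by rank within a list, since the authors' fold and p-values belong to each list alone. The strongest peak at a tRNA gene in INTS13 replicate 1 had a median percentile of 84.7, against 73.5 at gene ends, and 39.4% of them, against 29.0%, were in the top 10% of the list. In 7 of the 10 lists that share was below the one at gene ends. In replicate 2 both medians were 68.9. In HDGF replicate 2 the median percentile was 45.2 at tRNA genes, against 62.2 at gene ends, and in replicate 1 both were 57.4. In INTS11 replicate 1 it was 66.2 at tRNA genes, against 57.9, and in replicate 2 both were 52.3. In both ZEB1 lists and in ZNF609 replicate 1 the medians at tRNA genes and gene ends were the same, and in ZNF609 replicate 2 the median was 44.2 at tRNA genes, against 52.2. For these 2 proteins the share of tRNA peaks in the top 10% was 8.33% and 7.69% in the ZEB1 lists, against 14.3% and 13.6% at gene ends, and 5.26% and 8.33% in the ZNF609 lists, against 16.3% and 12.4%.

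Of the 429 genes, 3 had a peak in all 10 lists: TRG-CCC5-1, TRF-GAA1-5 and TRC-GCA15-1. TRG-CCC5-1, a glycine gene at chr1:16727285-16727355 in a dense bin, was the only one with both-replicate regions of all 5 proteins. Its peaks were 9.43 and 7.90 times background in the INTS13 lists, 6.06 and 4.69 in the INTS11 lists, 6.70 and 6.97 in the HDGF lists, 4.93 and 5.48 in the ZEB1 lists and 5.86 and 4.84 in the ZNF609 lists, as the authors' fold of each peak. Each was at or above percentile 99.5 of its list, and its INTS13 peaks were 5653 and 13381 bp wide, so they extend far beyond the gene.

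TRF-GAA1-5, whose sequence is given above, had both-replicate regions of INTS13, INTS11, HDGF and ZEB1. Its folds were 5.37 and 3.98 in the INTS13 lists, 3.38 and 3.82 in the INTS11 lists and 4.73 and 5.11 in the HDGF lists. In the ZEB1 lists they were 2.85 and 3.18 and in the ZNF609 lists 2.70 and 2.83. It lies beside gene ends in a dense bin, at percentile 98.5 or above for INTS13, INTS11 and HDGF and between 52.2 and 87.5 for ZEB1 and ZNF609. TRN-GTT4-1, the asparagine gene shown above, had INTS13 percentiles of 86.4 and 83.4 and no HDGF peak in replicate 2.

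TRC-GCA15-1 (chr7:149584725-149584796) led the cysteine genes, with regions of INTS13, INTS11, HDGF and ZEB1. Its folds were 4.07 and 3.07 in the INTS13 lists and 2.76 and 2.60 in the INTS11 lists, and its HDGF peak in replicate 2 was only at percentile 10.2. The other cysteine genes among the 15 most occupied were TRC-GCA19-1, TRC-GCA16-1, TRC-GCA3-1, TRC-GCA17-1, TRC-GCA20-1 and TRC-GCA9-3, all of the second chromosome 7 cluster. Their INTS13 peaks lay at percentiles 96.3 to 99.8 in both lists. TRC-GCA9-2, in the first chromosome 7 cluster, was among the 3 strongest for ZNF609, at percentiles 86.1 and 65.7.

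Outside dense bins, 2 genes were among the 15. TRV-AAC1-2 (valine, chr5:181164154-181164226) had INTS13 percentiles of 98.9 and 98.6 and both-replicate regions of INTS11 and HDGF, in a cluster where 15 of 17 genes had no peak in any list. TRL-TAA1-1 (leucine, chr6:144216547-144216629) had INTS13 percentiles of 99.5 and 92.8 and HDGF percentiles of 99.4 and 75.5. The remaining genes of the 15 were TRV-CAC1-1 (valine), TRR-CCT4-1 (arginine) and TRX-CAT1-1, each with INTS13, INTS11 and HDGF.

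**Figure D5:**
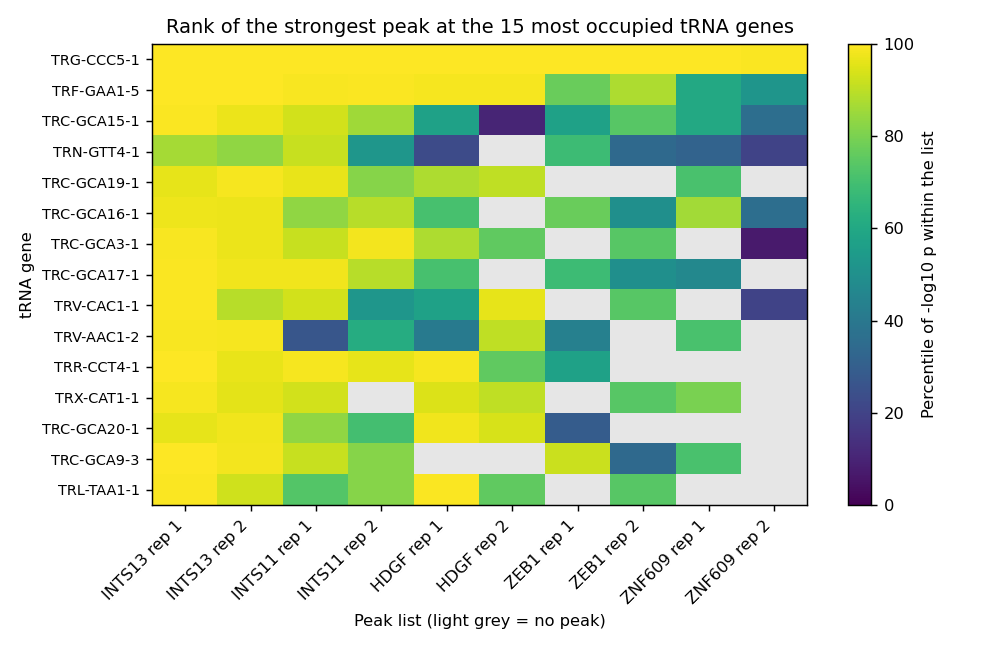
Percentile, within its list, of the -log10 p of the strongest peak at the 15 tRNA genes with most proteins and lists (rows) in the 10 lists (columns); light grey means no peak. TRG-CCC5-1 is at or above percentile 99.5 in all 10 lists, whereas the ZEB1 and ZNF609 columns have gaps and lower ranks at most other genes.

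Genes of the tRNA pathway were examined at either end with 1 kb on each side. In all 4 gene lists the HDGF share lay above that of protein-coding genes. The INTS13 share did so too, but was close to it for the genes of tRNA processing and the synthetases. INTS13 had a both-replicate region at 14 of 18 genes of RNA polymerase III subunits (77.8%), 15 of 17 genes of TFIIIB, TFIIIC, SNAPc and MAF1 (88.2%), 17 of 25 genes of tRNA processing and splicing (68%) and 14 of 20 cytosolic aminoacyl-tRNA synthetase genes (70%), against 64.1% of protein-coding genes. HDGF had one at 8 (44.4%), 9 (52.9%), 10 (40%) and 7 (35%) of these genes, against 22.3% of protein-coding genes, and INTS11 at 4, 3, 7 and 3, against 17.6%. ZEB1 had one at 2, 0, 2 and 2 of them, against 3.81% of protein-coding genes, and ZNF609 at 0, 0, 0 and 1, against 1.58%. YARS1, the tyrosyl-tRNA synthetase gene, had regions of all 5 proteins and a peak in all 10 lists. ZBTB8OS, which encodes the archease subunit that serves the tRNA ligase complex, had regions of 4 proteins and GTF3C6, a TFIIIC subunit gene, of 3, both with a peak in all 10 lists. The lists of genes were not tested as sets.

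Of 20 other RNA polymerase III genes, such as those of Y RNAs, 7SK and U6, 15 had an INTS13 region, 6 an INTS11 region, 3 an HDGF region, 1 a ZEB1 region and 2 a ZNF609 region, against 45.9%, 12.5%, 13%, 3.03% and 1.66% of all genes. RNY5 had regions of INTS13, INTS11, HDGF and ZEB1, RNY4 of the first 3, and RNY1 and RNY3 of INTS13, INTS11 and ZNF609. These 4 Y RNA genes lie close together in dense bins of chromosome 7, between positions 148941488 and 148987248, and account for 4 of the 6 INTS11 and both of the ZNF609 genes.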

How the data were processed

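Per the submitters' processing notes, the tools were MACS2 for peaks, and Bowtie, Picard, Trimmomatic and FastQC; their versions, the control, thresholds, genome build and treatment of multiply mapped reads were not stated. GRCh38 was inferred from chromosome ends and contig names. The deposited peak lists, 1 per library, give the authors' fold of each peak over background (a linear ratio), its p-value and q-value as -log10, and a score, which is the deposited -log10 q times 10 as a whole number. These values were used only within a list. Read depth is unknown.

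With Python 3.11.15, numpy 2.4.6 and pandas 2.3.3, each tRNA gene with 1 kb either side was overlapped (1 bp or more) with each list. The same was done for both ends of all genes, and for windows every 5 kb from 10 to 50 kb around tRNA genes. Genes listed under scaffolds or patches were left out, and so were peaks that did not lie on the chromosomes used. Shares were compared over 10 lists by exact sign-flip tests, Benjamini-Hochberg adjusted over 5 comparisons; lists of a protein are not independent of each other. The scripts were tested on simulated data. Members, gene lists and comparisons were chosen with earlier results of these data known.

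Genes named were the 15 with most proteins, lists and rank, the 3 strongest per protein, all clusters of 5 or more, all isotypes, selenocysteine and initiator genes, and up to 4 pathway genes a list. Sequences come from RefSeq start windows (GRCh38.p14); strands were read from the anticodon and T-loop letters. Alternatives varied the window, peak limits, overlap rule, background and lists.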

Additional observations from a re-analysis of the deposited data

How the results depend on the processing

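All p-values here are from the exact sign-flip or exact permutation tests of the report. Between tRNA genes and gene ends the difference was 2.19 points (exact sign-flip test, adjusted p = 0.114). With 5 kb either side it was 5.39, past the threshold (exact sign-flip test, adjusted p = 0.00488). Merging overlapping windows to loci gave 4.19, also past the threshold (exact sign-flip test, adjusted p = 0.00977). Counting each cluster once, an alternative chosen after seeing the data, gave 6.60, also past the threshold (exact sign-flip test, adjusted p = 0.00977). Outside dense bins, which were picked by the peak numbers of these same lists, the difference was 4.88, and no test of it is given. Without the chromosome 6 stretch, also chosen after seeing the data and for its lack of peaks, the difference was 4.23, a rise fixed by that choice. It was -0.120 with the 10000 strongest peaks of each list, -3.52 against protein-coding gene ends and -0.322 against small RNA genes. Leaving out 1 list gave 1.43 to 2.53, past the threshold without ZEB1 replicate 1 (exact adjusted p = 0.0456). Against flanks (0.674 points) the difference was -0.376 with 5 kb and -0.516 without windows that touch a gene end. It was -0.430 (without INTS13 replicate 1) to 1.14 with 1 list left out. With loci it was 3.86 (exact adjusted p = 0.0220), but merged windows are longer than the flank windows, so that rise is partly one of length. The difference between proteins (-0.0722 on the log2 scale, between minus within) was 0.81 on gene bodies (p = 0.0392), 0.43 with the strongest peaks (exact permutation p = 0.00635), 0.011 with 500 bp, 0.031 with 5 kb, 0.16 with peaks of -log10 q from 5 up, 0.34 with 50% of the window covered and 0.053 without windows that touch a gene end, and -0.117 to 0.0185 with 1 list left out; outside dense bins it had no value, since ZNF609 replicate 2 had no tRNA gene. The causes of these shifts were not tested.

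The largest cluster stayed lower in each alternative that was run, at -23.3 to -17.0 points with 1 list left out, and missed the threshold where the lists were averaged to 5 proteins (-21.3, exact adjusted p = 0.156), a design whose smallest p is 0.0625. Genes beside RNA polymerase II gene ends were at -0.542 points with the strongest peaks and at 3.32 to 6.23 with 1 list left out. Genes with copies (-4.54) missed the threshold with 500 bp (-4.64, exact adjusted p = 0.0586), with peaks of -log10 q from 5 up (-0.874), with the strongest peaks (-0.149), with summits (-3.27, adjusted p = 0.0537) and by protein means (-4.54, adjusted p = 0.156), were at 0.648 outside dense bins, and at -5.44 to -3.78 with 1 list left out. Both-replicate shares moved by more than the spread between lists as follows. The shares of gene ends under most of these settings are not given here, so whether the shifts are particular to tRNA genes cannot be told. INTS13 (44.8%) was at 32.6% on gene bodies, 59.2% with 5 kb, 11.4% at the q limit, 1.86% with the strongest peaks, 28.4% by summit and 30.8% with 50% coverage. The INTS11 lists differ so widely that only the share without replicate 2 (35.4%) moved past that spread. Even so, the INTS11 share (11.7%) was at 1.17% at the q limit, 0.932% with the strongest peaks, 3.95% outside dense bins and 19.3% with 5 kb. HDGF (8.86%) was at 0.466% on gene bodies, at the q limit and with 50% coverage, 5.13% with 500 bp and by summit, 24.0% with 5 kb and 1.63% with the strongest peaks. ZEB1 (1.63%) was at 0.699% on gene bodies and with 50% coverage, 4.43% with 5 kb, 0.233% at the q limit and with the strongest peaks, 2.15% with loci and 0 outside dense bins, as was ZNF609. With 1 list left out the share is that of the other list: INTS13 46.6 to 59.2%, INTS11 12.4 to 35.4%, HDGF 14.7 to 18.6%, ZEB1 5.59 to 6.06% and ZNF609 2.80 to 4.43%. Replicate numbers did not pair the lists, with 0 of 10 protein pairs over a correlation of 0.1 (-0.0136 to 0.0311), and with the replicate block the test between proteins (-0.0722) gave an exact p of 0.875.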
